A study of Mus musculus with 6 samples.

Results

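The Iroquois and thalamic transcription factors examined here are the genes Irx1, Irx2, Irx3, Irx5, Tcf7l2, Gbx2, Olig3, Lhx9, Rora and Barhl2. They were taken by name, with every probe set that names exactly 1 of them, which gave 24 probe sets of 34958 that name a single gene, and 10 genes of 18194. Irx1, Irx2, Irx3, Irx5, Gbx2, Olig3 and Barhl2 have 1 probe set each, Tcf7l2 and Lhx9 have 4 and Rora has 9. The series compared mouse embryos without functional Fezf1 and Fezf2 (Fezf1-/- Fezf2-/-, called the knockout below) with wild-type embryos, each aged 9.5, 10.5 or 12.5 embryonic days (called E9.5, E10.5 and E12.5). Forebrain tissue in front of the level where the lateral ventricles end was cut out by hand, and its RNA was measured on Affymetrix mouse arrays, of which there were 6, with 1 for every genotype at every age. The labels name no strain, litter or number of embryos per array, and no other allele or treatment.

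Iroquois genes encode homeodomain proteins of the TALE class and lie in clusters, with Irx1, Irx2 and Irx4 on mouse chromosome 13 and Irx3, Irx5 and Irx6 on chromosome 8. In the developing diencephalon they are expressed behind the zona limitans, a signalling border between prethalamus and thalamus, and work in zebrafish and frog places Fezf and Irx factors in opposition on either side of that border. Tcf7l2 encodes a transcription factor that acts with beta-catenin downstream of Wnt signals and is a classic marker of thalamus and habenula. Olig3 is a helix-loop-helix factor of thalamic progenitors, Gbx2 and Lhx9 are homeobox factors of young thalamic neurons, Rora is a nuclear receptor of maturing thalamic neurons, and Barhl2 is a Bar-class homeobox factor of the caudal diencephalon. None of the 10 genes lies on chromosome 6 or 14, which carry Fezf1 and Fezf2.

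The stretches around the start of transcription are shown for Irx3, Irx2 and Tcf7l2, which were higher in the knockout at E12.5 (for Tcf7l2 the first of its 2 annotated starts), and for Olig3, which was lower. Each runs from 250 bases before to 50 bases after the annotated start, 5′ to 3′ on the gene's own strand, from RefSeq on GRCm38.p6. Capitals mark the letters AAAGAGCA, part of the binding site described for zebrafish Fezf2, a motif added after the Irx3 stretch had been read.
Irx3, chr8:91801605-91801904, minus strand: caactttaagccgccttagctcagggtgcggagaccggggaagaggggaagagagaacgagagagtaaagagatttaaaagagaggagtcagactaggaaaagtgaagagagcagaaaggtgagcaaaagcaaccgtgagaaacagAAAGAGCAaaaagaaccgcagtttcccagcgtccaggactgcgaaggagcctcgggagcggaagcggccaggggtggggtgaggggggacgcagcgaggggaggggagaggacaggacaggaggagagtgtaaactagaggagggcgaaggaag
Irx2, chr13:72628570-72628869, plus strand: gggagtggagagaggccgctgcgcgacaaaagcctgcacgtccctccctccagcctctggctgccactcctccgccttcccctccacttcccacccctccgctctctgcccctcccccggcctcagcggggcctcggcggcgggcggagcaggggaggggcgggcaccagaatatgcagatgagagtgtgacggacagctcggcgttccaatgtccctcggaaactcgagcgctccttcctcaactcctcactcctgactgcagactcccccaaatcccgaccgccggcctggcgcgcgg
Tcf7l2, chr19:55741560-55741859, plus strand: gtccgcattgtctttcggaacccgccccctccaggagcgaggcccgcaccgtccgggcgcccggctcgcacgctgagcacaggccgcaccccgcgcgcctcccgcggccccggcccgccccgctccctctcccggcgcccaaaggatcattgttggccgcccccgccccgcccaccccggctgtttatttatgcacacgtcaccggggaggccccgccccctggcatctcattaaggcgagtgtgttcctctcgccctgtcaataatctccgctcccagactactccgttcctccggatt
Olig3, chr10:19356289-19356588, plus strand: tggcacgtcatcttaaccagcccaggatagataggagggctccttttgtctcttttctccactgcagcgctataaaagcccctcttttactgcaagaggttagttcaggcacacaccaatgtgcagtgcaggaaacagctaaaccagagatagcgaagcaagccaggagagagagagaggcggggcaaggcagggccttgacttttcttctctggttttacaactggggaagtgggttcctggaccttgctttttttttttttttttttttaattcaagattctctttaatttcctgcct
Entries existed for 8 of the 10 genes, 9 stretches in all, and 3 motifs were searched on both strands. CTTTGAT, read on its other strand, ends in the letters with which AAAGAGCA begins, so that a stretch can match both with the same bases. AAAGAGCA was found once, in Irx3, from base 147 of the stretch counted from its 5′ end, and 1.64% of all 32851 stretches hold it. The TCF/LEF core CTTTGAT, held by 3.73% of all stretches, and the Iroquois motif ACANNTGT described for fly proteins of the family, held by 7.38%, were in none of the 9. A match is a string of letters and not a site shown to be bound.

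Values are probe set signals after quantile normalization, and differences are knockout minus wild type of log2(signal + 6.50), which understates the change of dim probe sets. The median of all values was 24.0. A difference at 1 age has no replicate check and was counted, without a test, where it was at least 2-fold with the brighter signal above that median. The median deposited signal of the 6 arrays ran from 14.2 to 37.1. Fezf2 checked the labels, with signals in order of age of 0.458, 0.904 and 1.66 in the knockout, against 78.9, 146 and 249 in wild type. Fezf1 stood at 97.7, 78.4 and 49.5 in the knockout, against 251, 143 and 174 in wild type. Whether the Fezf1 probe set lies in the deleted part is not given in the sources used here.

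All 4 Iroquois genes were at least 2-fold higher in the knockout at E12.5, and so was Tcf7l2 among the 6 thalamic factors, while Olig3 was at least 2-fold lower. By probe set this was 7 of 24 higher and 1 lower, where 0.286% and 0.257% of all single-gene probe sets were. At E9.5 none of the 24 was counted in either direction (0.913% and 0.855% of all). At E10.5 none was higher (1.06% of all) and 2 were lower, Olig3 and the second-brightest of Lhx9 (1.18% of all). The median difference over the 24 probe sets was 0.11, 0.04 and 0.46 at the 3 ages, beside 0.00, -0.00 and 0.01 over all 34958. Over all probe sets the counts at E12.5 were 100 higher and 90 lower, against 472 higher and 206 lower without normalization and 137 higher and 163 lower after scaling to one trimmed mean. At E10.5 they were 370 higher and 414 lower, against 263 and 64 without normalization and 196 and 399 after that scaling. Among the members, 9 probe sets of 5 genes were higher at E12.5 without normalization, and 7 of 5 genes after that scaling. Counting any size of difference with the brighter signal above 24.0, 7 of 11 member probe sets were above 0 at E9.5, 9 of 14 at E10.5 and 14 of 17 at E12.5, where 50.4%, 49.7% and 52.4% of all were.

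**Figure D1:**
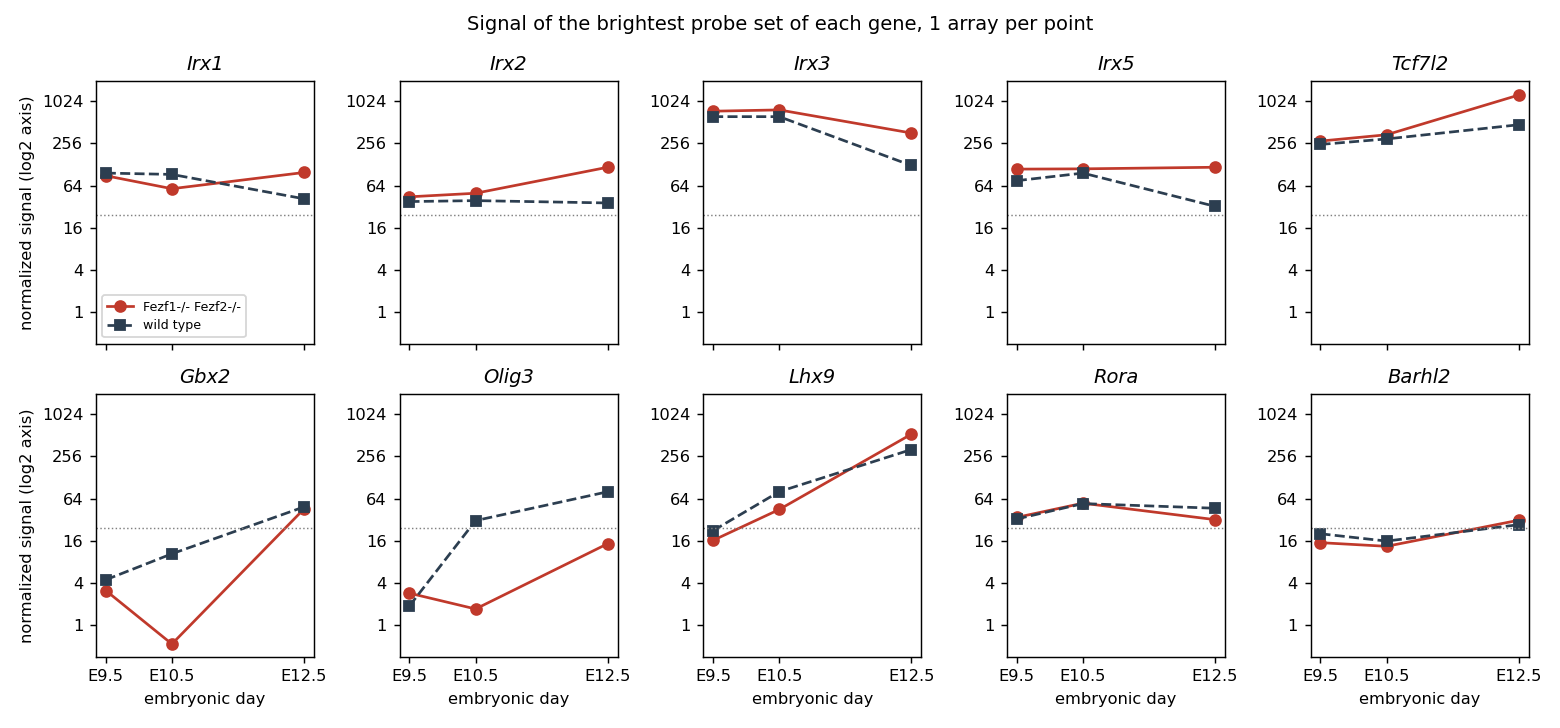
Normalized signal (log2 axis) of the brightest probe set of each gene by age in the knockout (red circles, solid) and wild type (dark squares, dashed), 1 array per point, with the median of all values (24.0) dotted. The 4 Iroquois genes and Tcf7l2 separate at E12.5 with the knockout above, and Olig3 separates from E10.5 with the knockout below.

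Irx3, a homeodomain factor of caudal forebrain progenitors, had signals of 741, 773 and 361 in the knockout, in order of age, against 619, 619 and 124 in wild type. Both genotypes were near their highest level at the first 2 ages and lower at E12.5, the wild type more so. From E9.5 to E12.5 the signal was 2.04-fold lower in the knockout and 4.79-fold lower in wild type. At E12.5 the knockout was thus 2.81-fold higher (1.49 on the log2 scale), after differences of 0.26 and 0.32 at the earlier ages. Irx5, its neighbour in the chromosome 8 cluster, had 110, 111 and 117 in the knockout, against 75.2, 96.5 and 32.3 in wild type. Its level was nearly flat over the 3 knockout arrays, while the E12.5 wild-type array was 2.10-fold lower than the E9.5 one. The knockout was 3.18-fold higher at E12.5 (1.67), after 0.51 and 0.19.

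Irx1 had signals of 88.5, 57.7 and 98.5 in the knockout, against 96.6, 92.4 and 41.4 in wild type. The knockout was the lower one at E9.5 and E10.5 (-0.12 and -0.62) and 2.19-fold higher at E12.5 (1.13). Irx2, in the same chromosome 13 cluster, had 44.2, 49.7 and 117 in the knockout, against 37.8, 39.0 and 36.1 in wild type. Here the wild-type arrays were nearly level and the E12.5 knockout array stood apart. It was 2.89-fold above wild type (1.53), after 0.19 and 0.30, and 2.43-fold above the E9.5 knockout. From E9.5 to E12.5 the log2 signal of Irx1, Irx2, Irx3 and Irx5 differed by 0.14, 1.28, -1.03 and 0.09 in the knockout, against -1.1, -0.06, -2.26 and -1.07 in wild type. The remaining family members Irx4 and Irx6 stayed under 24.0 on all 6 arrays, with E12.5 signals of 2.27 and 16.1 in the knockout and 0.626 and 12.2 in wild type.

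Tcf7l2 had signals of 277, 341 and 1260 in the knockout at its brightest probe set, against 248, 297 and 474 in wild type. Both genotypes were highest at E12.5, where the knockout was 2.64-fold above wild type (1.40), after 0.15 and 0.20. The second probe set read 129, 126 and 529 in the knockout, against 159, 130 and 131 in wild type. In that probe set the wild-type arrays did not differ by more than 1.20-fold between E9.5 and E12.5, so the E12.5 knockout array alone stood out, 3.90-fold above wild type (1.96). The third probe set gave the same order, with 43.4, 53.1 and 142 in the knockout, against 41.8, 43.9 and 42.2 in wild type, a difference of 1.61 at E12.5. The fourth and dimmest differed by 0.88 at E12.5, with 38.0 in the knockout and 17.7 in wild type, and by 1.09 at E9.5 with 9.62 and 1.08. All 4 Tcf7l2 probe sets were thus higher in the knockout at E12.5, and the brightest is the only one of the upper 3 in which wild type was also clearly brighter at E12.5 than at E9.5 (1.89-fold). Levels of different probe sets are not comparable with each other.

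**Figure D2:**
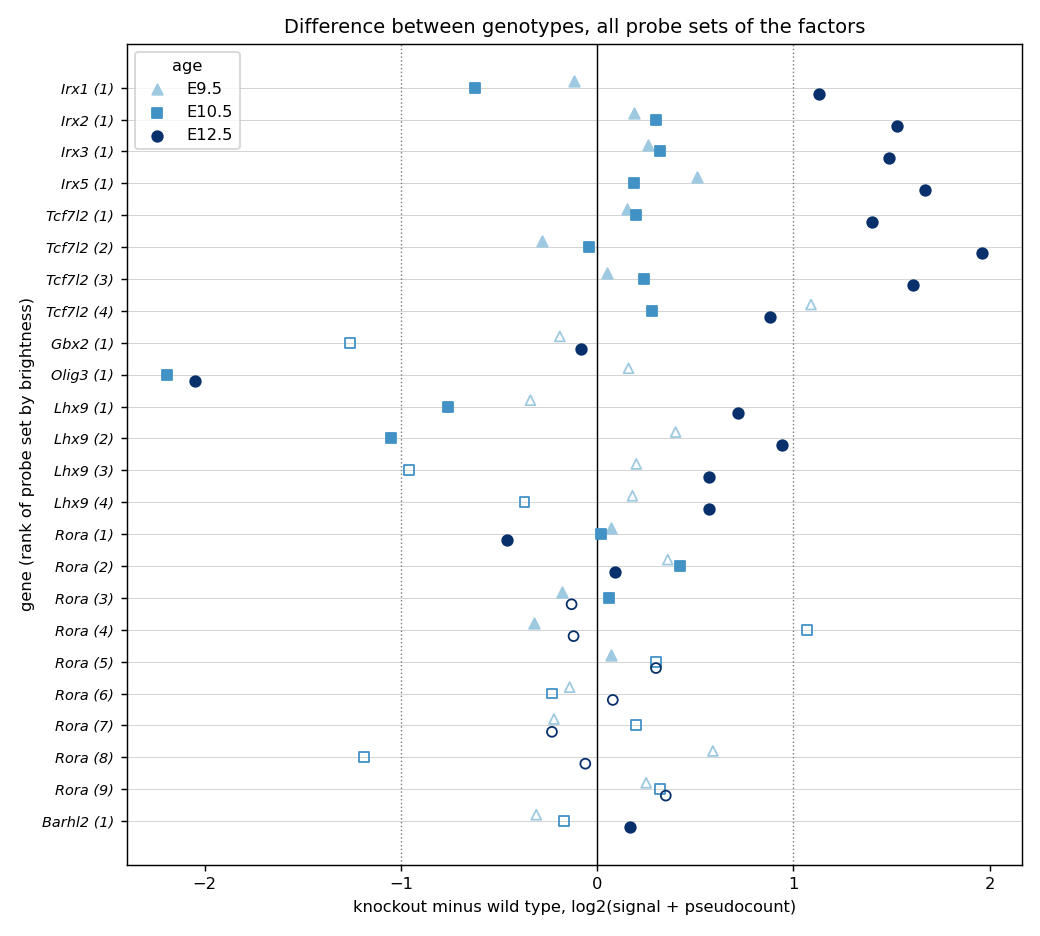
Knockout minus wild type on the log2(signal + pseudocount) scale for all 24 probe sets, with triangles for E9.5, squares for E10.5 and circles for E12.5, and open symbols where neither signal was above the median of all values. Dotted lines mark 2-fold, and the E12.5 circles of the Irx genes and of 3 Tcf7l2 probe sets lie beyond the right one.

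Olig3 went the other way. Its signals were 2.84, 1.69 and 14.5 in the knockout, against 1.87, 31.0 and 80.2 in wild type. It was dim on both E9.5 arrays and on all knockout arrays, and above 24.0 on the wild-type arrays of E10.5 and E12.5. The knockout was 4.58-fold lower at E10.5 (-2.19) and 4.13-fold lower at E12.5 (-2.05), both against knockout signals below the median of all values. Olig3 did not pass the filter on mean signal and so entered no test. At E10.5 the arrays also differed in Xist, transcribed from the inactive X chromosome of females (11.7 in the knockout, 573 in wild type), which was low on both E12.5 arrays (17.6 and 9.87), and the part of this in the E10.5 differences was not tested.

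Gbx2, a homeobox factor of young thalamic neurons, was dim at E9.5 and E10.5 in both genotypes (3.10 and 0.533 in the knockout, against 4.42 and 10.4 in wild type). By E12.5 its signals were 45.6 in the knockout and 48.7 in wild type, a difference of -0.08. Lhx9 had signals of 16.2, 44.7 and 534 in the knockout, against 22.3, 80.4 and 322 in wild type. All 4 Lhx9 probe sets were lower in the knockout at E10.5 (-0.76, -1.05, -0.96 and -0.37 by brightness) and all 4 were higher at E12.5 (0.72, 0.94, 0.57 and 0.57). The E12.5 differences were below 2-fold in each.

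Rora read 34.5, 55.0 and 32.0 in the knockout at its brightest probe set, against 32.7, 54.3 and 46.6 in wild type. At E12.5 it was 1.38-fold lower in the knockout (-0.46), and the other 8 probe sets, most of them under 24.0, differed by -0.23 to 0.35. At E10.5 a pair of these dim Rora probe sets differed by more than 2-fold in opposite directions (1.07 and -1.19), with all signals under 24.0. Barhl2 had signals of 15.0, 13.3 and 31.4 in the knockout, against 20.1, 15.8 and 27.1 in wild type, with a difference of 0.17 at E12.5. The thalamic factors thus did not share 1 direction at E12.5, with Tcf7l2, Lhx9 and Barhl2 above 0 and Gbx2, Olig3 and Rora below it at their brightest probe sets. Without normalization Gbx2 was at 0.06, where the median difference of all tested probe sets at E12.5 was 0.21. In whole tissue, fewer cells of a type and less RNA per cell cannot be told apart.

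**Figure D3:**
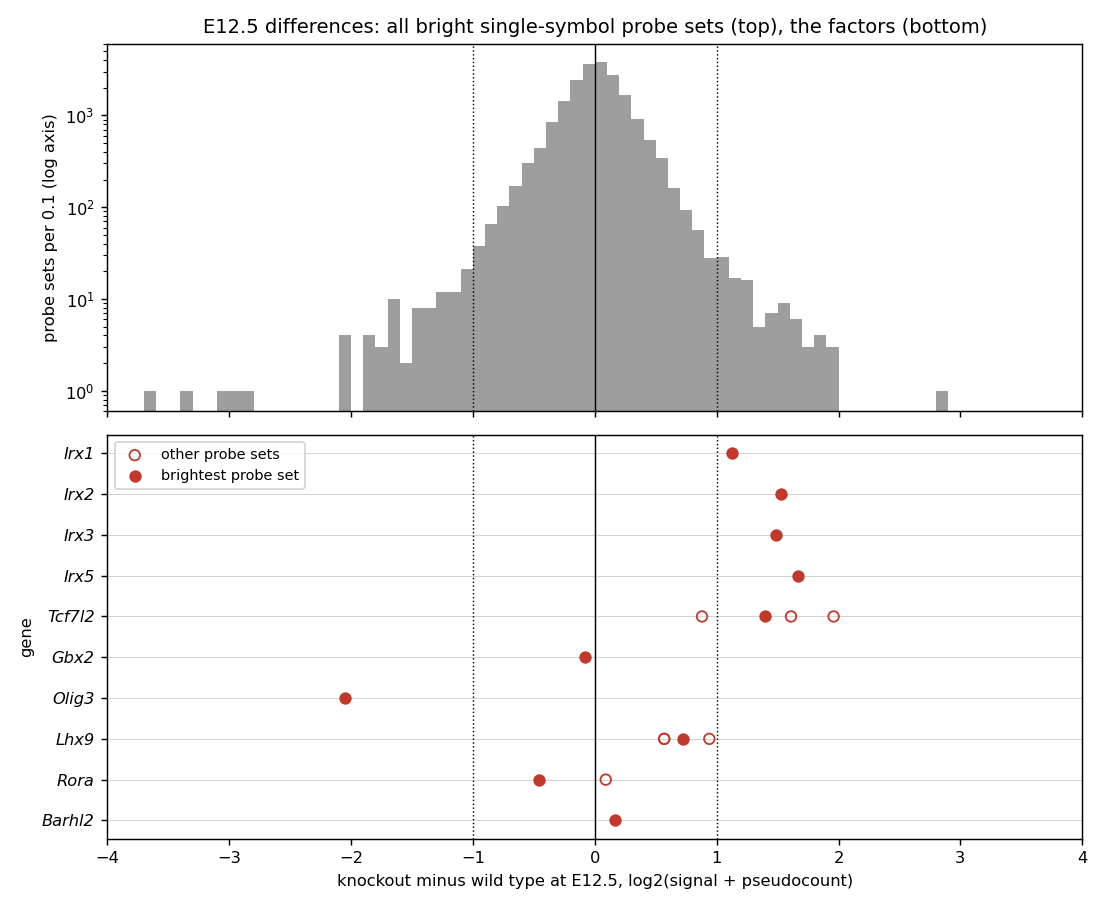
Knockout minus wild type at E12.5 on the log2(signal + pseudocount) scale, with the brighter signal above 24.0: the upper panel counts all 20072 such single-gene probe sets (log axis, steps of 0.1), and the lower panel shows the factors by gene, filled for the brightest probe set. The Irx genes and Tcf7l2 lie in the right tail and Olig3 in the left.

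The next comparison asked whether the genotypes differed in the same way at all 3 ages. No member passed. In limma's fit with age as a block, on 19593 probe sets above a filter on mean signal, 10 of the 24 member probe sets were tested, and 0 of them were called in either direction, where 0.00510% of all were called higher and 0.0255% lower (1 and 5 probe sets, against 10 and 6 without normalization). At an unadjusted p under 0.05 were 5 of the 10, beside 4.50% of all. The tested ones belong to Irx1, Irx2, Irx3, Irx5, Tcf7l2, Lhx9 and Rora, while Gbx2, Olig3 and Barhl2 were too dim. The mean difference over 3 pairs was 0.69 ± 0.20 for Irx3, 0.79 ± 0.24 for Irx5, 0.68 ± 0.26 for Irx2 and 0.58 ± 0.20 for Tcf7l2 (limma's moderated SE), each with an adjusted p of 1 over all probe sets. Without the E12.5 pair these means were 0.29, 0.35, 0.25 and 0.18. Irx1 averaged 0.13 ± 0.27, Lhx9 -0.13 ± 0.24 and Rora -0.13 ± 0.20. An effect at 1 age counts as error in this fit.

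A second fit asked whether the difference at E12.5 departed from the mean of those at E9.5 and E10.5. Its error was the spread between the E9.5 and E10.5 differences, moderated by limma toward the trend over all probe sets. It had 1 residual degree of freedom, 8.29 after moderation, so the error rests mostly on the other probe sets. The departure was 2.12 ± 0.25 for the second Tcf7l2 probe set, 1.23 ± 0.19 for the brightest and 1.46 ± 0.38 for the third (limma's moderated SE). For the Iroquois genes the departure was 1.20 ± 0.18 for Irx3, 1.32 ± 0.32 for Irx5, 1.28 ± 0.39 for Irx2 and 1.5 ± 0.36 for Irx1. For Lhx9 it was 1.27 ± 0.34 and 1.27 ± 0.56 by probe set, and for Rora -0.51 ± 0.43. By limma with adjustment over all 19593 probe sets, 0 members and 0 probe sets in all passed (0% in each direction), with adjusted p = 0.111 for the second Tcf7l2 probe set, 0.229 for Irx3, 0.238 for the brightest Tcf7l2 and 0.979 for Irx1. At an unadjusted p under 0.05 stood 8 of the 10 members, all of them with a larger difference at E12.5, where 3.67% of all probe sets stood in either direction. These 8 probe sets come from 6 genes. The members and this test were chosen with earlier results of these data known, so the count is a description. By rank of p among 19593, the second Tcf7l2 probe set was number 3, Irx3 number 12 and the brightest Tcf7l2 number 13. The second Tcf7l2 probe set passed on 3 of 6 other settings, with a limma adjusted p of 0.0234 after scaling to one trimmed mean, 0.0456 with a pseudocount of 20 and 1.62e-05 without normalization, where the fit in effect pooled the error over all probe sets. On the other 3 the adjusted p was 0.12 with a pseudocount of 1, 0.34 without the filter and 1 without the variance trend.

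The third comparison was the change with age, with the genotypes as each other's repeat. Xist also differed between ages, at 453, 11.7 and 17.6 in the knockout in order of age, against 725, 573 and 9.87 in wild type. The part of this in the changes with age was not tested. Lhx9 rose and Irx3 fell. From E9.5 to E12.5 the brightest Lhx9 probe set rose by 4.04 ± 0.30 on the log2 scale (limma adjusted p = 3.4e-06), 23.8-fold in the knockout and 11.4-fold in wild type, and the second rose by 4.79 ± 0.38. Tcf7l2 rose by 1.54 ± 0.25 at its brightest probe set (adjusted p = 0.000486), 4.48-fold in the knockout and 1.89-fold in wild type. Irx3 differed by -1.64 ± 0.24 (adjusted p = 0.000278). In all 3 members were called higher and 1 lower of 10, beside 26.3% and 32.9% of all probe sets, so a call in this fit is common. The other 6 members did not pass, at -0.49 ± 0.30 for Irx5, -0.48 ± 0.34 for Irx1, 0.61 ± 0.31 for Irx2, 0.86 ± 0.42 and 0.79 ± 0.34 for the other tested Tcf7l2 probe sets, and 0.18 ± 0.24 for Rora. Irx2 and the third Tcf7l2 probe set passed without normalization (1.33 and 1.51) and after scaling to one trimmed mean (0.93 and 1.1, limma adjusted p = 0.0276 and 0.0165), and the signs for Irx1 and Irx5 turned without normalization (0.25 and 0.23). The second Tcf7l2 probe set (1.44) and Rora (0.87) also passed without normalization.

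The Irx3 and Tcf7l2 changes came between E10.5 and E12.5, at -1.67 ± 0.24 (adjusted p = 0.000419) and 1.27 ± 0.25 (adjusted p = 0.00237). In that step 3 of 10 members were called higher and 1 lower, beside 19.6% and 27.5% of all. After scaling to one trimmed mean, Irx2 and 2 more Tcf7l2 probe sets, the second and the third by brightness, passed too, at 0.86, 1.12 and 0.95 (limma adjusted p = 0.0466, 0.0424 and 0.0383). Without normalization, where the median change of all tested probe sets was 0.84, 8 of 10 members were called higher and 1 lower. Beside them, 14961 of all 19567 tested probe sets were called higher and 616 lower, so a higher call was the common outcome there. The members gained were the same 3 with Irx1 (0.93, limma adjusted p = 0.0109) and Rora (0.66, adjusted p = 0.0259). Lhx9 had already risen from E9.5 to E10.5, by 1.39 ± 0.30 (adjusted p = 0.00763) and 1.46 ± 0.38 (adjusted p = 0.0185), which made 2 of 10 members higher and 0 lower, beside 16.2% and 13.6% of all. Both early Lhx9 calls were lost without the variance trend (limma adjusted p = 0.058 and 0.09), and that of the second probe set also without the filter (adjusted p = 0.0581). Over all probe sets the split of higher and lower calls from E9.5 to E12.5 was 5159 and 6447, against 10058 and 2455 without normalization and 6281 and 5226 after scaling to one trimmed mean. For E9.5 to E10.5 it was 3170 and 2673, or 1208 and 8374 without normalization, and for E10.5 to E12.5 it was 3849 and 5389, or 14961 and 616 without normalization, and 4796 and 4501 after that scaling. The median change of all tested probe sets as deposited was -0.39, 0.84 and 0.48 for the early step, the late step and the whole span, against -0.01, -0.10 and -0.09 after quantile normalization.

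The genes whose 6 values ran most like those of Irx3 and Tcf7l2 were sought among 11096 others, each by its brightest probe set, as the smallest root mean square distance between values centred on their mean. Nearest to Irx3 were Ephb3, a receptor for ephrins (distance 0.26 on the log2 scale, r = 0.972 over 6 arrays), Mgarp (0.26, r = 0.966), Mecom, a zinc-finger factor (0.28, r = 0.974), and Lgr5, a receptor for R-spondins (0.28, r = 0.966). Mecom signals were 474, 386 and 150 in the knockout, against 415, 257 and 50.8 in wild type, the same order of arrays at E12.5 as in Irx3. Nearest to Tcf7l2 were Ebf1, a factor of young neurons (0.24, r = 0.966), the guidance cue Ntn1 (0.25, r = 0.949), the progenitor factor Sox9 (0.27, r = 0.944) and Rasgef1b (0.29, r = 0.931). Ebf1 signals were 45.8, 47.9 and 219 in the knockout, against 25.1, 54.7 and 87.6 in wild type. These genes were picked for their likeness, so the correlations are descriptions, and the 6 points share age and genotype.

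The rest of the pathway lists, each gene by its brightest probe set, showed fewer large differences at E12.5. Of the close relatives of the 10 factors, 10 of 12 had a probe set, 8 of them with a brighter signal above 24.0, and 6 were above 0 and 2 below, with 0 at least 2-fold. Tcf7l1, a relative of Tcf7l2 that acts mostly as a repressor, was 0.74 higher, Lef1 was 0.26 higher and Lhx2 was at -0.18. Of the TALE partners Meis and Pbx, which bind DNA with other homeodomain proteins, 4 of 6 were above 0 with a median of 0.03. Of 14 other thalamic and epithalamic genes, 13 had a probe set, 12 were bright enough and 6 were above 0, 2 of them at least 2-fold, Dbx1 (1.93; 519 in the knockout, 131 in wild type) and Pou4f1, a POU factor of habenula and midbrain (1.15; 78.5 and 31.9). The background is 52.4% of bright probe sets above 0, and 0.286% of all single-gene probe sets at least 2-fold higher. Second probe sets, whatever their brightness, could differ, at -0.01 for Tcf7l1, 1.31 for Barhl1, -1.31 for Pbx4 and 1.64 for Neurog1.

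The zona limitans and Shh list had 4 of 8 above 0 at E12.5, with Shh, the signal of that border, at 0.72, its target Gli1 at 0.74 and Nkx2-2 at -0.35. Of 11 genes in the list of Wnt targets and inhibitors, which also holds R-spondins, 9 were below 0 (median -0.35) and 2 above. Axin2, a general target of the pathway in which Tcf7l2 acts, was at -0.49 and the R-spondin Rspo3 at -0.64. Above 0 were Lef1 (0.26) and Sfrp2 (0.39). Targets, inhibitors and R-spondins were counted together, so the count gives no direction for the pathway. By the brightest probe set of each gene, none of either list was 2-fold different at E12.5, while a second Wnt8b probe set was at -1.17. By limma 0 genes of these lists were called in the genotype fit or in the E12.5 fit. In limma's E12.5 fit 3.67% of all tested probe sets had an unadjusted p under 0.05. At that p stood 2 of 5 tested relatives, 0 of 5 TALE partners and 3 of 11 other thalamic genes. So did 1 of 8 in the Shh list and 1 of 12 in the Wnt list. Their departures from the mean of the earlier ages were above 0, except below 0 in the Wnt list. Such a sign is not that of the E12.5 difference itself. Calb2, of the other thalamic genes, had a departure of 1.28 and an E12.5 difference of -0.92.

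Markers of neighbouring tissue did not share a direction at E12.5. At E12.5 all 7 pretectum and midbrain markers bright enough to count, of 10, were higher in the knockout, 5 of them at least 2-fold. Of all single-gene probe sets, 52.4% of the bright ones were above 0 and 0.286% were at least 2-fold higher. The summed signal of the pretectum and midbrain list was 490 in the knockout and 181 in wild type. At E9.5 and E10.5 the sums were 778 and 763 in the knockout, against 685 and 565 in wild type. Pax7, a factor of dorsal midbrain and pretectum, was at 116 in the E12.5 knockout and 10.9 in the E12.5 wild type, while the midbrain factors En1 and En2 had 7.81 and 3.76 in the knockout, against 0.581 and 0.538 in wild type, all far below 24.0. Pou4f1 also counts among the other thalamic genes and Barhl1 among the relatives. The hindbrain and spinal cord list had 0 of 9 markers above 24.0 in either genotype at E12.5. Telencephalon markers, which check the labelled tissue, were above 24.0 in 5 of 5 cases in both genotypes at E12.5 by the brightest probe set of each gene, all below 0 with a median of -0.30, while a second Six3 probe set was at 1.21. They had a summed signal of 2290 in the knockout and 2720 in wild type. Prethalamus markers had a median of 0.01, head mesenchyme -0.51 (0 of 7 above 0) and surface ectoderm -0.29, while endothelium had -0.16, erythroid genes 0.40 and eye and retina -0.46 from 1 gene. In the E12.5 fit 0 genes of these marker lists passed by limma. The share of all tested probe sets at an unadjusted p under 0.05 in that fit was 3.67%. At that p stood 4 of 6 tested pretectum and midbrain markers, above 0, and 6 of 9 of head mesenchyme, below 0. So did 2 of 4 erythroid genes, the embryonic globins Hbb-bh1 (0.68) and Hba-x (0.64), and 1 of 5 telencephalon markers, above 0. Below 0 were 1 of 7 prethalamus and 1 of 6 surface ectoderm markers. In this fit the sign is that of the departure from the mean of the earlier ages. The telencephalon marker itself was lower in the knockout at E12.5, by its brightest probe set. The part of blood cells in the Irx and Tcf7l2 differences was not tested. Whether more caudal tissue in 1 of the 2 dissections had a part in the Irx and Tcf7l2 differences was not tested, and with 1 array per genotype it cannot be told apart from genotype.

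**Figure D4:**
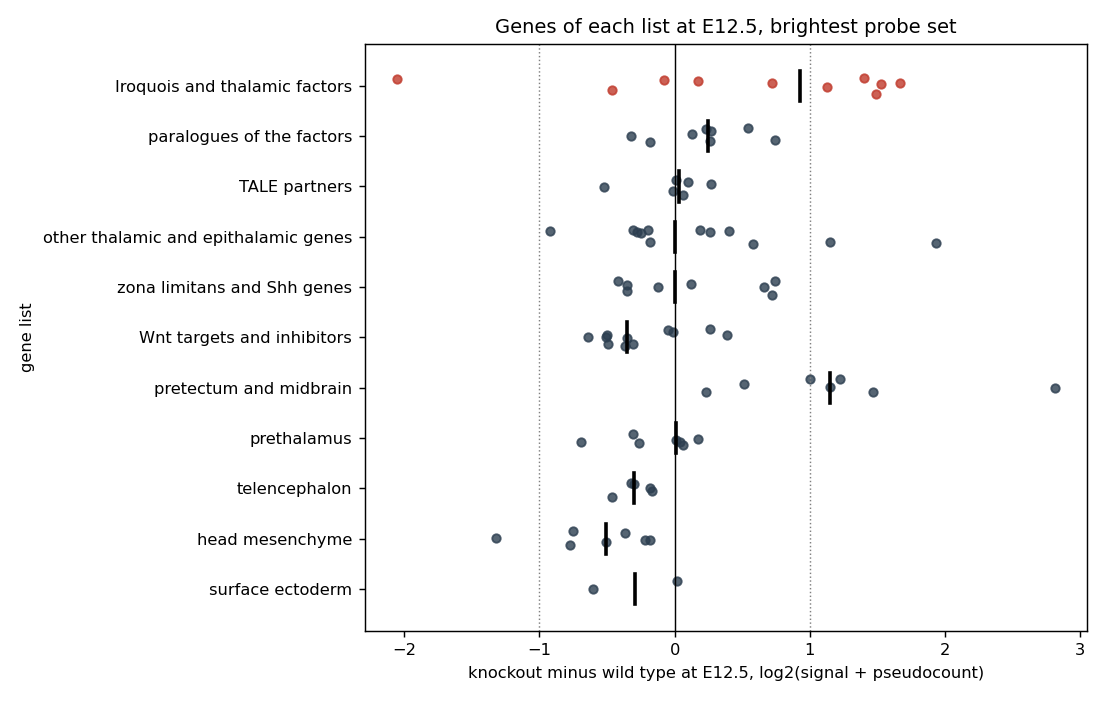
Knockout minus wild type at E12.5 on the log2(signal + pseudocount) scale for the genes of each list with the brighter signal above 24.0, by brightest probe set, with the list median as a black bar and 2-fold as dotted lines. The factors (red, median 0.92) and the pretectum and midbrain markers (median 1.15) hold most of the points beyond the right dotted line.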

How the data were processed

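The deposited values are MAS5 probe set intensity on a linear scale, per the submitters' processing notes. The sources used here give no software version, scaling target or detection calls. The arrays differed in level as deposited (2% trimmed means of 74.3 to 162), so the 6 columns were quantile-normalized with limma 3.58.1 in R 4.3.3, and log2(signal + 6.50) was used, the pseudocount being the lower quartile of the deposited values. Names came from the platform's annotation table. Of 45101, 34958 name 1 symbol, 932 several and 9211 none, and only the first kind was used. All 24 member probe sets matched their symbol in RefSeq through the Entrez identifier, and no multi-symbol probe set names a member.

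Genotype and age were taken from the labels. Probe sets with a mean log2 value above the median of all (19593) were fitted over all 6 arrays (lmFit, then eBayes with a variance trend): genotype with age as a block (2 residual degrees of freedom, 9.72 after moderation), an added E12.5 term (1 and 8.29), and age contrasts. P-values are two-sided, Benjamini-Hochberg adjusted over all 19593, with a threshold of 0.05, and reflect only the spread between these arrays, of which there are few. The fits were checked on simulated data with independent errors, which carry no differences between whole arrays and so cannot show their effect. Every single-symbol probe set of the members was accounted for, each gene led by its brightest, and like genes were the 4 nearest to Irx3 and to Tcf7l2. The members, the lists and the E12.5 test were chosen with earlier results of these data known.

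Alternatives were the values without normalization, scaling to one trimmed mean, pseudocounts of 1 and 20, no filter, the brightest probe set per gene, no variance trend, no age block, each age left out and a 1.5-fold threshold.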

Additional observations from a re-analysis of the deposited data

Results flagged for a closer look

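A pair of genes differed between the genotypes in opposite directions at different ages, by at least 1.5-fold each way with the brighter signal above the median of all values. Irx1 was lower in the knockout at E10.5 (-0.62 on the log2 scale) and higher at E12.5 (1.13). Lhx9 was lower at E10.5 (-0.76 at its brightest probe set and -1.05 at the second) and higher at E12.5 (0.72 and 0.94). How many of all 34958 probe sets turned in this way was not counted. At least 1.5-fold different in either direction were 2424 of them at E10.5 and 989 at E12.5. The E10.5 arrays also differed in Xist (11.7 in the knockout, 573 in wild type), and the part of this was not tested. The E12.5 difference against the E10.5 one alone was not tested, since each rests on 1 array per genotype. Against the mean of both earlier ages it did not pass (adjusted p = 0.979 for Irx1 and 1 for either Lhx9 probe set, limma).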

How the results depend on the processing

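In every setting run, 6 to 10 probe sets and 4 to 6 genes of the factors were counted as higher at E12.5. A pseudocount or a fold threshold cannot turn the sign of a difference, so only the scalings could. Gbx2, which was not counted, went from -0.08 to 0.06 without normalization. Of all 34958 single-gene probe sets, 100 were counted as higher in the main setting (7 of the factors). Without normalization they were 472 (9), and after scaling to one trimmed mean 137 (7). With pseudocounts of 1 and 20 they were 157 (8) and 30 (6), and at 1.5-fold 483 (10). Counts over all probe sets moved more. At least 2-fold different at E12.5 were 190, against 678 without normalization, 300 after scaling to one trimmed mean, 306 with a pseudocount of 1, 64 with 20 and 989 at 1.5-fold. At E9.5 they were 618, against 929, 188 and 1976 with the pseudocounts of 1 and 20 and at 1.5-fold, and at E10.5 784, against 327 without normalization, 251 with a pseudocount of 20 and 2424 at 1.5-fold. In the genotype fit 6 passed, against 16 without normalization, 3 and 10 with pseudocounts of 1 and 20, 2 without the filter, 1 without the variance trend and 0 without the age block (limma, 36 at an unadjusted p under 0.05), and 3 to 17 with 1 age left out (17 without E9.5, 3 without E12.5). In the E12.5 fit 0 passed (719 unadjusted), against 27 without normalization, 8 with the trimmed mean and 7 with a pseudocount of 20. For age, E9.5 to E10.5 had 5843 calls, against 9582 without normalization and 3183 without the trend. E10.5 to E12.5 had 9238, against 15577 without normalization. With the brightest probe set per gene, which leaves 11097 tested in place of 19593, the early step, the late step and the whole span had 3178, 5564 and 6960 calls, the last beside 11606.

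The mean genotype difference changed sign with an age left out for Irx1 (-0.37 to 0.51), the second Tcf7l2 probe set (-0.16 to 0.96), Lhx9 (-0.55 to 0.19 and -0.33 to 0.67) and Rora (-0.22 to 0.04). For the brightest Lhx9 it was 0.01 without normalization. Also without normalization, the E9.5 to E10.5 change was -0.28 for Irx2, -0.41 for Irx3, -0.16 for Irx5 and -0.13 and -0.21 for Tcf7l2. The E10.5 to E12.5 change was 0.93 for Irx1 (0.13 with the trimmed mean), 0.39 for Irx5 and 0.66 for Rora, and the whole span was 0.25 for Irx1 and 0.23 for Irx5. The causes were not tested.

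With 1 array per group no single-age difference has an error, and how far dim members lie above background is unknown without detection calls. The labels give no replicate numbers, and the fit with age as a block is the paired one, since it pairs the arrays of each age.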

Other observations

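In the fit of the E12.5 difference against the earlier ages, the smallest adjusted p over all 19593 probe sets was 0.111 (limma), shared by 5 probe sets. Besides the second Tcf7l2 probe set they name Pax7 (2.45), the chromatin protein gene Hmga2 (1.24), Jpt1 (1.27) and Ttr, which encodes transthyretin of the choroid plexus (-3.77). These genes were chosen after their values were seen.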
